A study of Mus musculus with 8 samples.

Results

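The 44 genes described here encode the machinery that copies DNA in S phase: the MCM helicase and the factors that load and start it, the sliding clamp and its loader, the polymerases, the enzymes that join new strands and make deoxynucleotides, the chromatin factors behind the fork, and 3 regulators of entry into S phase. They were taken by gene symbol from a list of replication genes that applies no threshold to measured values but was drawn up with earlier results of these data known, and all 44 were found among the 23284 symbols of the expression tables and passed the filter on low values, which 11931 genes passed. Expression was measured by RNA sequencing of Lineage- Sca-1+ c-Kit+ (LSK) cells, the sorted bone marrow fraction that holds blood stem cells and multipotent progenitors, from C57BL/6 male mice of 12 to 13 weeks. Mice fasted for over 14 hours were injected intravenously for 7 days with glucose at 2 g/kg (libraries A and B), with glucose at 2 g/kg and a 20% lipid emulsion, Intralipid, at 6 ml/kg (libraries H and I), or with phosphate-buffered saline (PBS; libraries H, I, J and K), had free access to food during the day, and gave marrow on day 8. The series title sets the question of how glucose and triglyceride after meals act on transcription in marrow stem cells. The labels call the libraries biological replicates without stating if each holds cells of a single mouse or of several pooled mice, and p-values measure only the spread between these libraries.

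Before S phase, the origin recognition complex with Cdc6 and Cdt1 loads the MCM ring onto DNA. Kinases then recruit Cdc45 and the GINS complex, which turn the ring into an active helicase, and primase with polymerase alpha starts each new strand. Replication factor C loads the clamp PCNA, which holds polymerases delta and epsilon on the template, and Fen1 and Lig1 finish the lagging strand. Many of these genes are targets of E2F transcription factors and are transcribed as cells pass from G1 into S phase. Most blood stem cells are quiescent, while the multipotent progenitors that make up much of an LSK sort cycle more often.

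Values were taken as FPKM, a fragment count scaled by transcript length and by a factor for each library, so levels can be compared between genes. Relative depth, read from the commonest ratio of low values between libraries, ran from 0.786 to 1.14 of that of glucose A. Markers of the LSK gate were present in every library, with Kit at 164 to 198 FPKM, Cd34 at 424 to 567 and Ly6a (Sca-1) at 295 to 424. The glucose with lipid library H stood apart: the 10 neutrophil markers summed to 64969.7 FPKM there, 8.34% of all its FPKM, against 138 to 441 FPKM in the other 7 libraries. Its 11 erythroid markers summed to 2284 FPKM against 290.0 to 1233 elsewhere, and its 7 monocyte and macrophage markers to 4785 FPKM against 403 to 526. The B cell marker Cd79a was at 19.1 FPKM in that library and at or below 0.380 FPKM in the others, where 3 to 5 of 8 B cell markers were listed at 0. Cd3e, which defines T cells, was at 3.77 FPKM there and at or below 0.606 FPKM elsewhere. The 8 T and NK cell markers summed to 467 FPKM there against 370.1 to 511 elsewhere, but Lck and Nkg7 made up most of this sum. Lck at 42.0 and Nkg7 at 407 FPKM were within the range of the other libraries. Like Cd3e, the rest of the list was highest in that library: Cd3g at 4.74, Cd3d at 3.72, Gzma at 1.15, Ncr1 at 2.34 and Klrb1c at 2.42 FPKM. Klrb1c was close behind in PBS J, at 2.06 FPKM.

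All 44 genes were expressed in every library. Mean levels over 8 libraries ran from 10.5 FPKM for Orc1 to 503 FPKM for Mcm6. Mcm6, Mcm3 at 305 and Rfc2 at 297 FPKM were at the top, and Orc1, Ccne1 at 19.2, Ccne2 at 21.8, Pole at 23.1, Pole2 at 24.7 and Mcm10 at 27.4 FPKM at the bottom. Replicates of a group differed by a median of 0.13 on the log2(FPKM + 1) scale in glucose, 0.17 in glucose with lipid, 0.13 in PBS H and I, and 0.15 in PBS J and K. Over all tested genes the same medians were 0.18, 0.21, 0.16 and 0.21.

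**Figure D1:**
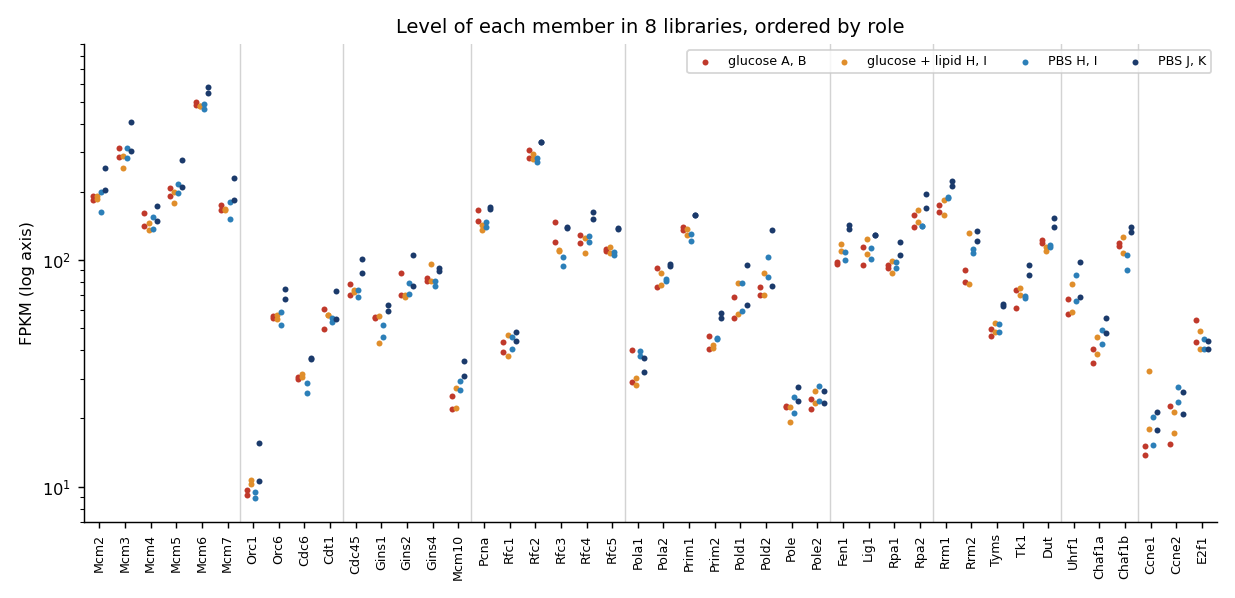
FPKM of each of the 44 genes (log axis) in the 8 libraries, 1 point per library, ordered by role with grey lines between roles. PBS J and K (dark blue) lie at the top for most genes, and the spread between libraries is small beside the range from 10.5 FPKM (Orc1) to 503 FPKM (Mcm6).

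The pattern the members shared was a high level in the PBS libraries J and K, and above all in J. Each member was set against its own mean over the 8 libraries on the log2(FPKM + 1) scale. The median over the 44 members was 0.27 in PBS J and 0.12 in PBS K, and it lay between -0.14 and -0.01 in the other 6: -0.01 in glucose A, -0.14 in glucose B, -0.07 in glucose with lipid H, -0.08 in glucose with lipid I, -0.04 in PBS H and -0.10 in PBS I. The 4 treated libraries thus covered the range of PBS H and I and lay below PBS J and K. PBS J held the highest value for 32 of 44 members, and 43 of 44 were above their mean there. PBS K held the highest value for 5 members and had 32 above their mean, while glucose B held the lowest value for 14. The same median over all tested genes was between -0.01 and -0.00 in every library. The median ratio of each library to the genes' geometric means was 0.997 to 1.004. The values were thus already scaled to put the median gene near 0, so that median is no separate background. Summed over the 44 genes, the level was 5769 FPKM in PBS J, 5121 in PBS K and between 4356 and 4722 in the other 6 libraries. As a share of all FPKM outside microRNA genes, the sum was 1.01% in PBS J, 0.931% in PBS K and 0.930% in PBS H. It was 0.743% in glucose with lipid H, where the neutrophil markers are part of the total, and 0.835% to 0.901% in the remaining libraries. By this measure PBS K was level with PBS H. In RNA from sorted cells in bulk, fewer cells in S phase and less RNA per cell cannot be told apart.

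**Figure D2:**
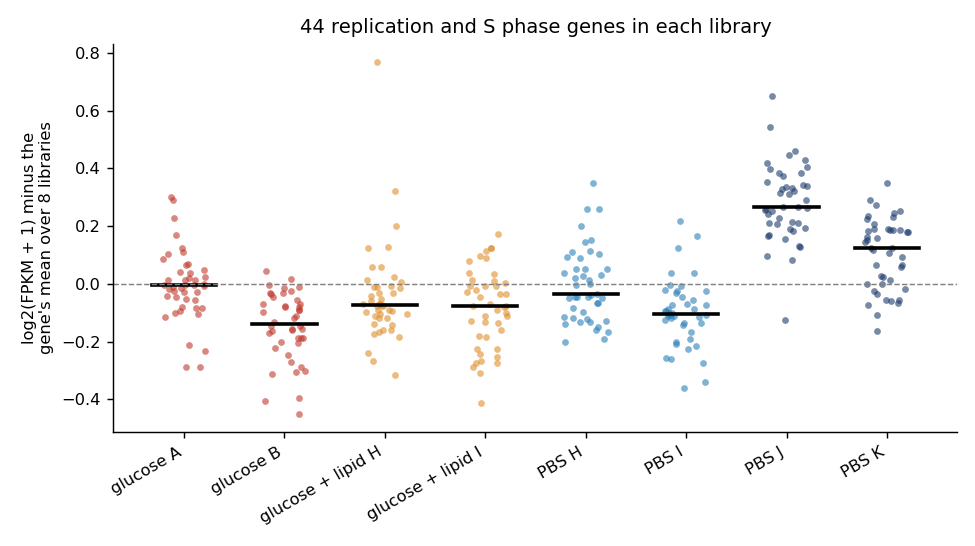
Each of the 44 genes in each library as log2(FPKM + 1) minus its mean over 8 libraries, 1 point per gene, with the median as a black bar. The median is 0.27 in PBS J and 0.12 in PBS K, and between -0.14 and -0.01 in the other 6 libraries.

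The labels do not say in words which PBS libraries belong to which treatment. PBS H and I share letters with the 2 libraries of glucose and lipid and were used as their controls, which left PBS J and K for glucose. The names of glucose with lipid H and I and of PBS H and I also carry a tag, BM. Those of glucose A and B and of PBS J and K lack it. Whatever the tag marks cannot be told apart from the difference between the PBS pairs. Set against PBS J and K, 43 of 44 members were lower in glucose, by a median log2 fold change of -0.28 (0.824-fold), with only E2f1 above. None passed an adjusted p of 0.05 in limma, a threshold that 0.101% of all tested genes passed. At an unadjusted p under 0.05, 17 members were lower and 0 higher, while 8.44% of tested genes were lower at that threshold, and 12.2% of the 7345 genes with a mean of at least 10 FPKM, a level that every member reaches. Both glucose libraries lay below both PBS J and K for 34 of 44 members, against 24.8% of tested genes and 31.5% of those with at least 10 FPKM on average. All tested genes had a median log2 fold change of -0.00, which the scaling of the values sets near 0. Of those with at least 10 FPKM on average, 57.4% were below 0. Marker lists were counted in the same comparison: 9 of 10 LSK gate markers were above 0 (median 0.19), 8 of 9 tested neutrophil markers below 0 (median -0.78) and 8 of 10 tested erythroid markers above 0 (median 0.32). Neutrophil markers summed to 143 and 219 FPKM in glucose A and B and to 441 and 247 FPKM in PBS J and K. The part of these cells in the members' values was not tested.

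That median depended on PBS J, on PBS K and on the choice of controls. It was -0.17 without PBS J, with 39 members below 0 and 6 lower at an unadjusted p under 0.05, and -0.39 without PBS K, with 25. Without glucose B it was -0.21, a move within the spread between replicates, 0.073. Fewer members then reached an unadjusted p under 0.05, with a single glucose library left. When PBS H and I served as the controls instead, it was 0.01, with 21 of 44 members below 0 and 0 at an unadjusted p under 0.05. With all 4 PBS libraries as controls it was -0.12, with 39 members below 0 and 7 at an unadjusted p under 0.05.

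In glucose with lipid, set against PBS H and I, members lay on both sides of 0. The median log2 fold change was 0.01, with 21 members below 0 and 23 above, and 0 of 44 passed an adjusted p of 0.05 in limma, against 0.0754% of tested genes. At an unadjusted p under 0.05, 1 member (Pola1) was lower and 0 were higher, where 5.93% of tested genes were lower. Both treated libraries lay below both controls for 6 members and above them for 9, against 21.8% and 22.2% of tested genes. Leaving out glucose with lipid H, the library with the neutrophil markers, gave a median of 0.02, and taking PBS J and K as controls gave -0.28, with 19 members lower at an unadjusted p under 0.05.

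The 2 pairs of PBS libraries differed from each other as well. The pair H and I was below the pair J and K for 40 of 44 members, with a median log2 fold change of -0.24. Of the 44, 0 passed an adjusted p of 0.05 in limma, which 0.0503% of tested genes passed. At an unadjusted p under 0.05, 20 members were lower and 0 higher, where 9.72% of tested genes and 14.5% of those with at least 10 FPKM on average were lower. PBS H and I lay wholly below PBS J and K for 28 members, against 25.3% of tested genes and 32.8% of those with at least 10 FPKM, and wholly above for 1, Pola1. The median was -0.18 without PBS J and 11 members were then lower at an unadjusted p under 0.05; without PBS I the count was also 11, and without PBS H it was 12. This comparison and that of glucose share PBS J and K, so their values are given side by side and are not independent of each other. Markers of other cells also differed between the pairs: 10 of 10 tested erythroid markers were above 0, with a median log2 fold change of 0.80 and summed levels of 634 (H), 656 (I), 563 (J) and 290.0 FPKM (K). Of 9 tested neutrophil markers 7 were below 0, and the list summed to 138 FPKM in PBS H, 201 in I, 441 in J and 247 in K. All 5 megakaryocyte markers were below 0, with a median of -0.56, and summed to 95.8 FPKM in PBS H, 90.2 in I, 144 in J and 148 in K. The part of these cells in the members' values was not tested.

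Over all treated against all PBS libraries, 39 of 44 members were below 0, with a median of -0.14. None passed an adjusted p of 0.05 in limma (0.327% of tested genes did), and 9 were lower and 0 higher at an unadjusted p under 0.05, against 7.04% of tested genes lower. Without PBS J the median was -0.08. The count of 9 was 3 without PBS J, 3 without glucose B, 4 without PBS I, 5 without PBS H or without glucose with lipid I, and 16 without PBS K. All 4 treated libraries lay below all 4 PBS libraries for 1 member, Rrm1, where 2.84% of tested genes did. The difference of the 2 treatment effects had a median of 0.26 with 41 members above 0. In limma 0 members passed an adjusted p of 0.05, where 0.0168% of tested genes did, and 8 were higher at an unadjusted p under 0.05, against 6.03% of tested genes. The contrast is formed with all 4 groups, so a high level in PBS J and K enters it with a positive sign. Without PBS J the median was 0.19. The count of 8 was 3 without glucose B, 4 without glucose with lipid I, 5 without any 1 of PBS H, I and J, and 12 without PBS K.

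**Figure D3:**
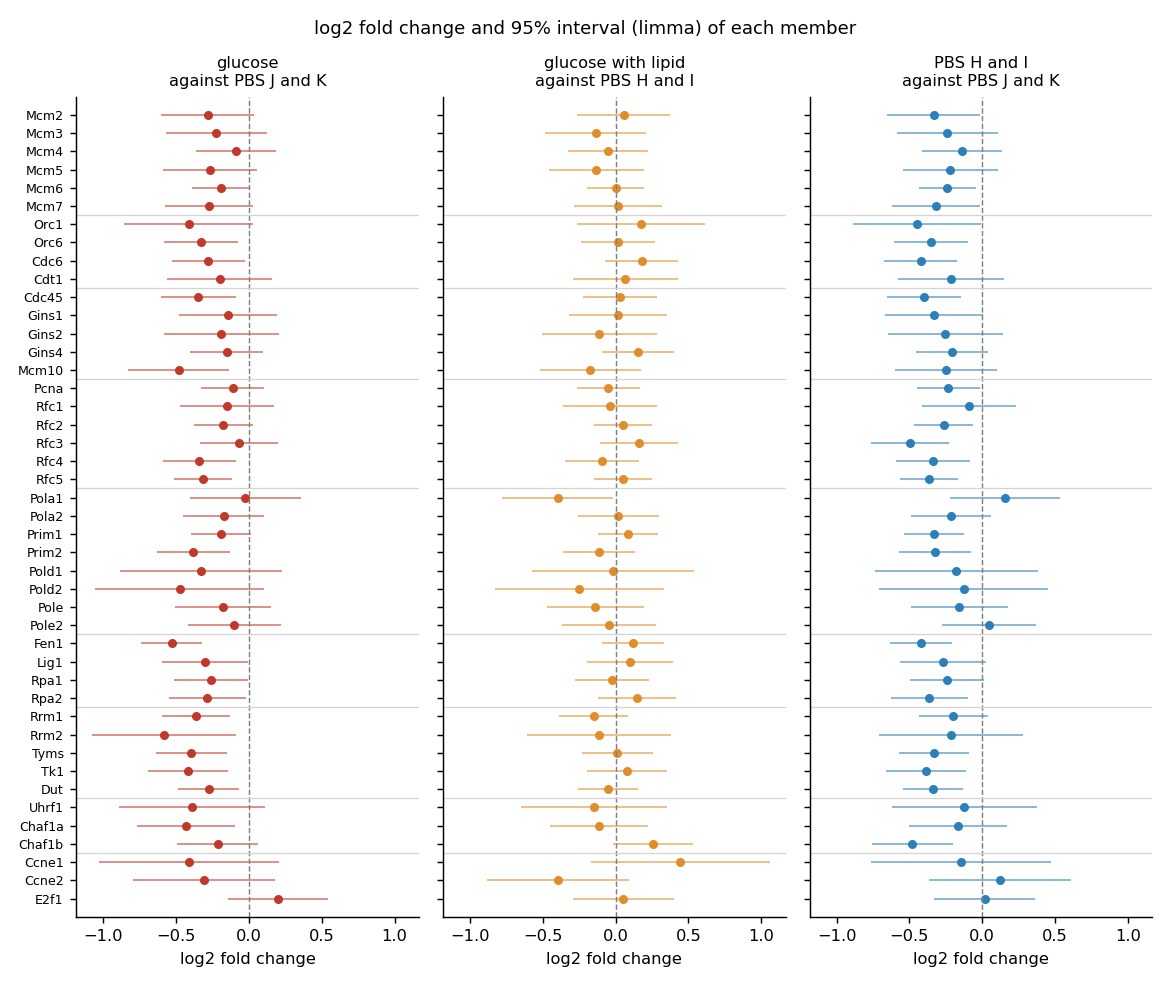
log2 fold change on the log2(FPKM + 1) scale of each member (point) with its 95% interval from limma (line), for glucose (left) and glucose with lipid (middle), each over its own PBS pair, and for PBS H and I over PBS J and K (right). In the left and right panels 43 and 40 of 44 points lie below 0, and in the middle panel 21 do.

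The 6 MCM genes, whose products form the ring of the replicative helicase, were among the most abundant members. Mcm6, on chr1:128331590-128359664 (GRCm38), was at 485 and 500.2 FPKM in glucose A and B, 477 and 478 in glucose with lipid H and I, 490.0 and 465 in PBS H and I, and 581 and 546 in PBS J and K. PBS J and K were above the other 6 libraries, which overlapped one another. Its log2 fold change was -0.19 (SE 0.08, adjusted p = 0.339 in limma) in glucose, 0.00 (SE 0.08, adjusted p = 0.997) in glucose with lipid, and -0.24 (SE 0.08, adjusted p = 0.216) between the PBS pairs. Mcm3 was at 314 and 286 FPKM in glucose, 287 and 254 in glucose with lipid, 314 and 281 in PBS H and I, and 406 and 303 in PBS J and K, so that PBS J was high and PBS K was not. The group's median was -0.25 in glucose, -0.02 in glucose with lipid and -0.24 between the PBS pairs; without PBS J the first was -0.09 and the last -0.10, and without PBS K they were -0.44 and -0.43. By quantile normalization the last was -0.05.

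The promoters of 4 MCM genes and of Rfc3, a clamp loader subunit, are shown because they are the 5 members whose RefSeq promoter window (250 bases before to 50 after a transcript start, GRCm38.p6) held 2 or more E2F-type words, which 23 of 8509 tested genes with a window did. The words searched were TTTCCCGC, TTTGGCGC, TTTCGCGC and TTTGCCGC on both strands, printed in capitals. Sequences run 5′ to 3′ on the strand of the gene: Mcm3 from chr1:20820263-20820562 (minus strand), Mcm5 from chr8:75109259-75109558 (plus strand), Mcm6 from chr1:128359656-128359955 (minus strand), Mcm7 from chr5:138171834-138172133 (minus strand) and Rfc3 from chr5:151651159-151651458 (minus strand).
Mcm3: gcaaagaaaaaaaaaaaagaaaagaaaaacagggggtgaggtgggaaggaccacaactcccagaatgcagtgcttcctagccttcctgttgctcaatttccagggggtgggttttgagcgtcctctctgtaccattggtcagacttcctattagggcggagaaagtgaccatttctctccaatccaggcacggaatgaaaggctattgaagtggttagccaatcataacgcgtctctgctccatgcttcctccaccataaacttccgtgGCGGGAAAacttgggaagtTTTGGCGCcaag
Mcm5: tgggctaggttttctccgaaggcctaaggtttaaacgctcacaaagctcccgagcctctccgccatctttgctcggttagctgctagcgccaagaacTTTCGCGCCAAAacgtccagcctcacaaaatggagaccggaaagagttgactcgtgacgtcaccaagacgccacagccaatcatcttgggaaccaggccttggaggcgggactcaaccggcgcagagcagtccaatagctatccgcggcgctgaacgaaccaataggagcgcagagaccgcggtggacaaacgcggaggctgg
Mcm6: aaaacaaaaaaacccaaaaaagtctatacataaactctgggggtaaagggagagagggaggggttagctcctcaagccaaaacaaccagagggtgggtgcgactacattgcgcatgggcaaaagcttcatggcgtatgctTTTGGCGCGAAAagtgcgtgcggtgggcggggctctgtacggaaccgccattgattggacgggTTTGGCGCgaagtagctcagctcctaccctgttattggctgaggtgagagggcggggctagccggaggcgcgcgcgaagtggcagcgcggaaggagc
Mcm7: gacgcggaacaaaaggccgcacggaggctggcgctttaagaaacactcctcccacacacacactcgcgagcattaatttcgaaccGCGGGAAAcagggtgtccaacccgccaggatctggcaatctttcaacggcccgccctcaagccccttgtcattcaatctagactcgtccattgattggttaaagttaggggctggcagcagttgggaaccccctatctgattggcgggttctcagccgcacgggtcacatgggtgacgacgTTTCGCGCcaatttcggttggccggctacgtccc
Rfc3: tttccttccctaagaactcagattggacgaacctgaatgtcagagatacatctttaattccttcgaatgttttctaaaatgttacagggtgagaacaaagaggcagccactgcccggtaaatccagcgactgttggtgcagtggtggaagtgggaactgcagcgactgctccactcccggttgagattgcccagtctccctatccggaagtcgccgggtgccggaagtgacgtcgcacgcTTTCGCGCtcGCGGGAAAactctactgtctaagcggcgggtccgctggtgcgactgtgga
In Mcm5 and in Mcm6 a pair of words on opposite strands overlapped by 4 bases, and Mcm6 held 1 more. In Mcm7 a word shared 1 base with a CCAAT word, the letters that NF-Y binds. Mcm2 had no such word in its window.

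Origin recognition and licensing genes were at lower levels. Orc6, a subunit of the origin recognition complex, was at 55.4 and 56.9 FPKM in glucose, 57.0 and 54.7 in glucose with lipid, 51.7 and 59.0 in PBS H and I, and 74.6 and 67.1 in PBS J and K. PBS J and K lay above all other libraries. The log2 fold change was -0.33 (SE 0.11, adjusted p = 0.256 in limma) in glucose, 0.02 (SE 0.11, adjusted p = 0.974) in glucose with lipid and -0.35 (SE 0.11, adjusted p = 0.188) between the PBS pairs. Cdc6, which loads MCM rings, was at 29.96 and 30.3 FPKM in glucose, 31.4 and 30.5 in glucose with lipid, 28.6 and 25.8 in PBS H and I, and 36.6 and 37.0 in PBS J and K. Cdt1, its partner in loading, was at 60.9 and 49.6 FPKM in glucose, 57.0 and 57.0 in glucose with lipid, 55.5 and 53.3 in PBS H and I, and 72.9 and 54.9 in PBS J and K. Unlike Orc6 and Cdc6, Cdt1 was high in PBS J alone. Orc1, an ATPase subunit of the origin recognition complex, was at 15.6 FPKM in PBS J and between 8.86 and 10.7 FPKM in the other 7 libraries. All 4 genes were above 0 in glucose with lipid, with a median of 0.12, and 0 passed an adjusted p of 0.05 in limma or an unadjusted p under 0.05. Both treated libraries lay above both controls for 3 of the 4, against 22.2% of tested genes, while 17 of 18 other licensing and firing factors were below 0 in the same comparison.

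The helicase activation group holds Cdc45, GINS subunits and Mcm10, which help to turn the loaded ring into a moving helicase. Gins4 was at 83.2 and 80.8 FPKM in glucose, 80.6 and 95.7 in glucose with lipid, 77.2 and 80.5 in PBS H and I, and 89.8 and 92.6 in PBS J and K. It was highest in glucose with lipid I, and its log2 fold change was -0.15 (SE 0.11, adjusted p = 0.548 in limma) in glucose and 0.15 (SE 0.11, adjusted p = 0.628) in glucose with lipid. Mcm10 was at 25.2 and 21.99 FPKM in glucose, 27.2 and 22.2 in glucose with lipid, 29.2 and 26.6 in PBS H and I, and 36.0 and 30.8 in PBS J and K. Both glucose libraries lay below all 4 PBS libraries, while glucose with lipid H lay among them. The log2 fold change of Mcm10 was -0.48 (SE 0.15, adjusted p = 0.245 in limma) in glucose and -0.17 (SE 0.15, adjusted p = 0.696) in glucose with lipid. Cdc45 was at 78.3 and 69.9 FPKM in glucose, 72.0 and 73.6 in glucose with lipid, 69.1 and 73.6 in PBS H and I, and 101 and 88.1 in PBS J and K, again with the treated libraries level with PBS H and I.

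Among the clamp Pcna and the loader subunits Rfc1 to Rfc5, Rfc2 was the most abundant. It was at 306 and 283 FPKM in glucose, 279 and 295 in glucose with lipid, 283 and 270.2 in PBS H and I, and 333 and 332 in PBS J and K. Rfc5 was at 112 and 109.6 FPKM in glucose, 108 and 114 in glucose with lipid, 106 and 108 in PBS H and I, and 139 and 137 in PBS J and K. In both genes PBS J and K were nearly equal and above all other libraries. For Rfc2 the log2 fold change was -0.18 (SE 0.09, adjusted p = 0.399 in limma) in glucose, 0.05 (SE 0.09, adjusted p = 0.867) in glucose with lipid and -0.26 (SE 0.09, adjusted p = 0.202) between the PBS pairs. For Rfc5 it was -0.31 (SE 0.09, adjusted p = 0.225 in limma), 0.05 (SE 0.09, adjusted p = 0.857) and -0.36 (SE 0.09, adjusted p = 0.139) in the same order. Rfc3, whose promoter is printed above, differed: it was at 147 and 120.4 FPKM in glucose, 109.7 and 111 in glucose with lipid, 103 and 93.9 in PBS H and I, and 139 and 139.9 in PBS J and K. Glucose A was its highest library. Pcna was at 166 and 149 FPKM in glucose, 136 and 142 in glucose with lipid, 148 and 140.4 in PBS H and I, and 171 and 168 in PBS J and K. Without PBS J the group's median between the PBS pairs was -0.27 against -0.30 with it, and by quantile normalization it was -0.12.

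Polymerase and primase genes were split in the comparison of the PBS pairs, from -0.33 to 0.16 on the log2 scale. Prim1, the catalytic subunit of primase, was at 140.4 and 136 FPKM in glucose, 129 and 137 in glucose with lipid, 130.4 and 121 in PBS H and I, and 158 and 158 in PBS J and K. Prim2, its partner subunit, was at 46.3 and 40.6 FPKM in glucose, 41.0 and 42.4 in glucose with lipid, 44.9 and 45.4 in PBS H and I, and 58.2 and 55.4 in PBS J and K. Both subunits were highest in PBS J and K. The other 6 libraries overlapped for Prim1, while for Prim2 both glucose with lipid libraries were below PBS H and I. The log2 fold change of Prim1 was -0.19 (SE 0.09, adjusted p = 0.365 in limma) in glucose and 0.08 (SE 0.09, adjusted p = 0.757) in glucose with lipid. That of Prim2 was -0.38 (SE 0.11, adjusted p = 0.228 in limma) and -0.11 (SE 0.11, adjusted p = 0.725). Pola1, the catalytic subunit of polymerase alpha, followed another order: 39.9 and 28.9 FPKM in glucose, 28.0 and 30.2 in glucose with lipid, 37.6 and 39.6 in PBS H and I, and 37.1 and 32.2 in PBS J and K. Pola1, chosen for its statistics after its values were seen, was lower in both glucose with lipid libraries than in PBS H and I, with a log2 fold change of -0.40 (SE 0.16, unadjusted p = 0.0426, adjusted p = 0.407 in limma). Pold2, a subunit of polymerase delta, was at 70.2 and 76.3 FPKM in glucose, 87.5 and 70.2 in glucose with lipid, 103 and 84.5 in PBS H and I, and 136 and 76.8 in PBS J and K. PBS J and K differed by 0.81 for Pold2, the widest gap between these 2 libraries among the members. The group's median between the PBS pairs was -0.17, and it was 0.02 without PBS J, -0.29 without PBS K, -0.05 without PBS I and -0.27 without PBS H.

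The flap endonuclease Fen1, which removes RNA primers from the lagging strand, had the smallest p of all members in glucose. It lies on chr19:10199132-10204169 (GRCm38, minus strand). Fen1 was at 95.7 and 97.7 FPKM in glucose, 117 and 109.8 in glucose with lipid, 101 and 108 in PBS H and I, and 143 and 138 in PBS J and K. Glucose lay below every other library, but PBS H was close at 101 FPKM, and PBS J and K stood above all. The log2 fold change was -0.53 (SE 0.09, adjusted p = 0.119 in limma) in glucose, 0.12 (SE 0.09, adjusted p = 0.655) in glucose with lipid and -0.42 (SE 0.09, adjusted p = 0.123) between the PBS pairs. Over PBS H and I the glucose value was -0.11 (adjusted p = 0.841 in limma). Rpa2, part of the complex that coats single-stranded DNA, was at 159 and 140.2 FPKM in glucose, 147 and 167 in glucose with lipid, 141 and 142 in PBS H and I, and 195 and 169.8 in PBS J and K. Its log2 fold change was -0.28 (SE 0.11, adjusted p = 0.315 in limma) in glucose and 0.15 (SE 0.11, adjusted p = 0.665) in glucose with lipid. With the ligase Lig1 and with Rpa1, all 4 genes of this group were lower in glucose at an unadjusted p under 0.05, as were 8.44% of tested genes and 12.2% of those with at least 10 FPKM on average. Lig1 had an unadjusted p of 0.0455 and Rpa1 one of 0.0457, and over PBS H and I 0 of the 44 members were lower at that threshold.

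Nucleotide synthesis genes had the lowest group median in glucose, -0.40, and all 5 were lower at an unadjusted p under 0.05 (8.44% of tested genes were), with 0 of 5 past an adjusted p of 0.05 in limma. Rrm1, the large subunit of ribonucleotide reductase, was at 175 and 163 FPKM in glucose, 184 and 158 in glucose with lipid, 188 and 191 in PBS H and I, and 224 and 212 in PBS J and K. The highest treated library, glucose with lipid H at 184 FPKM, was below the lowest PBS library, H at 188 FPKM. Rrm1 had a log2 fold change of -0.36 (SE 0.10, adjusted p = 0.228 in limma) in glucose, -0.15 (SE 0.10, adjusted p = 0.607) in glucose with lipid, and -0.26 (SE 0.07, adjusted p = 0.243) over all treated against all PBS libraries. Rrm2, the small subunit, was at 90.6 and 79.7 FPKM in glucose, 131 and 78.7 in glucose with lipid, 112 and 108 in PBS H and I, and 135 and 121 in PBS J and K. The glucose libraries and glucose with lipid I lay below all PBS libraries for Rrm2, and glucose with lipid H, the library with the neutrophil markers, did not; the part of those cells in this value was not tested.

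Tyms, thymidylate synthase, was at 49.6 and 46.1 FPKM in glucose, 48.4 and 52.6 in glucose with lipid, 48.0 and 52.2 in PBS H and I, and 62.8 and 63.7 in PBS J and K. PBS J and K were above the rest, which overlapped. The log2 fold change of Tyms was -0.40 (SE 0.10, adjusted p = 0.223 in limma) in glucose and 0.01 (SE 0.10, adjusted p = 0.981) in glucose with lipid. Tk1, thymidine kinase, was at 74.0 and 61.3 FPKM in glucose, 70.4 and 74.9 in glucose with lipid, 68.1 and 69.5 in PBS H and I, and 85.9 and 94.9 in PBS J and K. For the group as a whole the median was -0.05 in glucose with lipid and -0.33 between the PBS pairs. Without PBS J its median in glucose was -0.41. The choice of controls mattered more. The glucose libraries overlapped PBS H and I for Tyms and Tk1. For Dut, the remaining gene of the group, they were at 123 and 119 FPKM, above PBS H and I at 117 and 114. Only Rrm1 and Rrm2 were below PBS H and I in both glucose libraries. Glucose thus lay below the controls for the whole group only when these were PBS J and K.

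Genes that rebuild chromatin behind the fork split into 2 patterns. Chaf1b, a subunit of the histone chaperone CAF-1, was at 119 and 115 FPKM in glucose, 107 and 127 in glucose with lipid, 105 and 90.3 in PBS H and I, and 140.1 and 133 in PBS J and K. All treated libraries lay between the PBS pairs. Its log2 fold change was -0.21 (SE 0.12, adjusted p = 0.441 in limma) in glucose, 0.26 (SE 0.12, adjusted p = 0.448) in glucose with lipid and -0.48 (SE 0.12, adjusted p = 0.149) between the PBS pairs. Chaf1a, the large CAF-1 subunit, was at 40.5 and 35.2 FPKM in glucose, 45.8 and 38.6 in glucose with lipid, 48.9 and 42.5 in PBS H and I, and 55.7 and 47.4 in PBS J and K. Both glucose libraries were below all 4 PBS libraries, with a log2 fold change of -0.43 (SE 0.15, adjusted p = 0.256 in limma); in glucose with lipid it was -0.11 (SE 0.15, adjusted p = 0.806). Uhrf1, which reads hemimethylated DNA, was at 67.6 and 57.6 FPKM in glucose, 78.1 and 58.9 in glucose with lipid, 85.8 and 66.1 in PBS H and I, and 97.8 and 68.7 in PBS J and K. Within each pair the first library was the higher, so the groups overlapped except for glucose against PBS J and K.

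The 3 regulators of the step from G1 to S phase had a median of 0.19 over their own means in PBS J, -0.03 in PBS K and 0.13 in glucose with lipid H. E2f1, an activating E2F factor, was at 54.4 and 43.4 FPKM in glucose, 48.6 and 40.3 in glucose with lipid, 44.7 and 40.6 in PBS H and I, and 40.6 and 43.7 in PBS J and K. It was the 1 member below its mean in PBS J, and its log2 fold change was 0.20 (SE 0.15, adjusted p = 0.559 in limma) in glucose, 0.05 (SE 0.15, adjusted p = 0.924) in glucose with lipid and 0.02 (SE 0.15, adjusted p = 0.974) between the PBS pairs. Ccne2, an E cyclin that activates Cdk2, was at 22.6 and 15.5 FPKM in glucose, 21.3 and 17.2 in glucose with lipid, 27.6 and 23.5 in PBS H and I, and 26.0 and 21.0 in PBS J and K. Its log2 fold change was -0.31 (SE 0.21, adjusted p = 0.534 in limma) in glucose and -0.40 (SE 0.21, adjusted p = 0.507) in glucose with lipid. Ccne1, the other E cyclin, was at 32.4 FPKM in glucose with lipid H and between 13.8 and 21.4 FPKM in the other 7 libraries, the widest gap from replicate to replicate in its group at 0.81. Neutrophil, erythroid and B cell markers were high in that same library, and their part in this value was not tested.

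**Figure D4:**
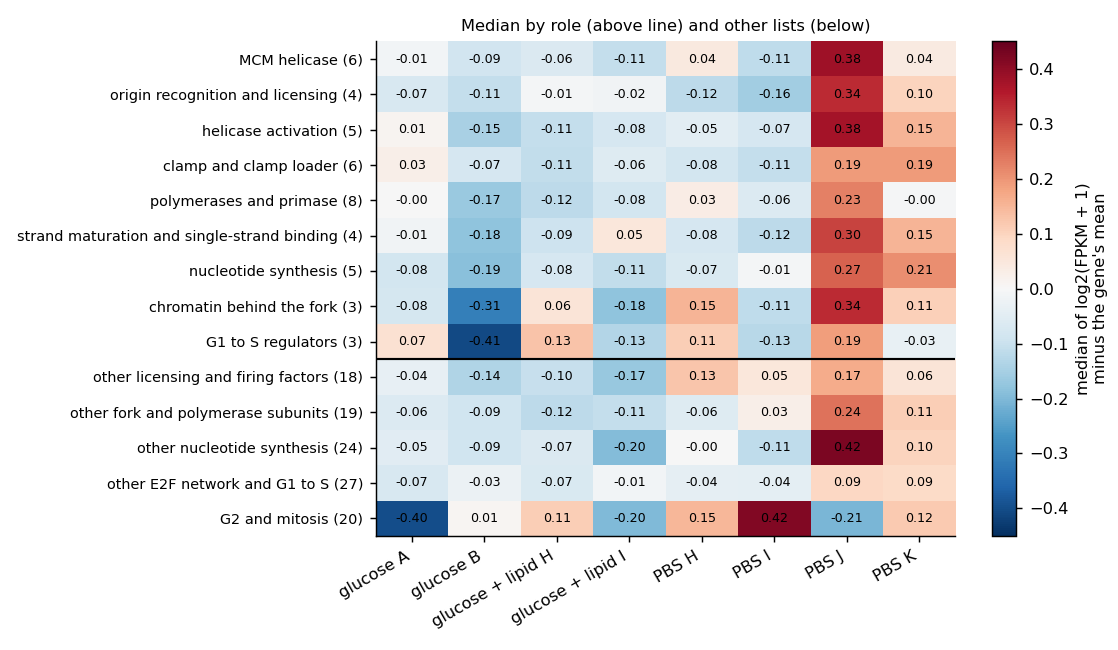
Median over the genes of each role (9 rows above the line) and of 5 other lists (below) of log2(FPKM + 1) minus the gene's mean over 8 libraries, with the number of genes in parentheses. PBS J is the highest library in all 9 roles or level with PBS K, and in the G2 and mitosis row it is low at -0.21 while PBS I is highest at 0.42.

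Ratios between subunits of a complex were followed across libraries. The FPKM of Mcm6 over that of Mcm4, both in the same ring, ran from 3.02 in glucose A to 3.66 in PBS K. Rfc2 over Rfc1 ran from 6.18 to 7.57, Prim1 over Prim2 from 2.67 to 3.35, and Rpa2 over Rpa1 from 1.43 to 1.68. The ratio of Rrm1 to Rrm2 ran from 1.66 to 2.05 in 7 libraries and was 1.40 in glucose with lipid H. Ccne1 over Ccne2 was 1.52 in that library, 1.05 in glucose with lipid I and 0.646 to 0.892 in the others. These ratios are descriptions of single libraries, without a test.

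Genes of the same processes outside the 44 were counted in lists. In glucose, over PBS J and K, 14 of 18 other licensing and firing factors, 18 of 19 other fork and polymerase subunits and 23 of 24 other nucleotide synthesis genes were below 0, with medians of -0.18, -0.20 and -0.33. In limma 0 genes of these lists passed an adjusted p of 0.05, and 3, 6 and 7 of them were lower and 0 higher at an unadjusted p under 0.05, where 8.44% of tested genes and 12.2% of those with at least 10 FPKM on average were lower. The 3 of 18 in the first list are near that share. Without PBS J the medians of the first and the last list were -0.10 and -0.14, without PBS K the last was -0.52, and without glucose A that of the fork list was -0.35. Between the PBS pairs 12 of 18, 15 of 19 and 20 of 24 genes of these lists were also below 0, with medians of -0.04, -0.17 and -0.29. There 0 passed an adjusted p of 0.05 in limma. At an unadjusted p under 0.05, 1, 4 and 9 were lower, against 9.72% of tested genes and 14.5% of those with at least 10 FPKM on average. Gmnn, the inhibitor of Cdt1, was at 137 and 125 FPKM in glucose, 136 and 137 in glucose with lipid, 116 and 119 in PBS H and I, and 169.9 and 157 in PBS J and K, with a log2 fold change of -0.32 (SE 0.09, adjusted p = 0.229 in limma) in glucose. Mthfd1, a folate enzyme that feeds nucleotide synthesis, had a log2 fold change of -0.68 (SE 0.17, adjusted p = 0.205 in limma), and Pole3, a polymerase epsilon subunit, one of -0.42 (SE 0.11, adjusted p = 0.214). In glucose with lipid 17 of 18, 13 of 19 and 19 of 24 genes of these lists were below 0, with medians of -0.21, -0.15 and -0.05, and without PBS I that of the fork list was -0.10. Both treated libraries lay below both controls for 12, 8 and 4 of them, against 21.8% of tested genes. In limma 0 passed an adjusted p of 0.05, and 3, 1 and 0 were lower at an unadjusted p under 0.05, against 5.93% of tested genes.

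Cdkn1a, which encodes the cyclin-dependent kinase inhibitor p21, was the 1 gene of the 27 in the list of the E2F network and the G1 to S step that passed the test. It lies on chr17:29090976-29100727 (GRCm38, plus strand). Cdkn1a was at 57.1 and 54.4 FPKM in glucose, 51.4 and 49.9 in glucose with lipid, 25.8 and 25.7 in PBS H and I, and 16.6 and 19.6 in PBS J and K. All 4 treated libraries were above all 4 PBS libraries, as for 423 of 11931 tested genes, and PBS J and K had the lowest values. Cdkn1a was higher by a log2 fold change of 1.58 (SE 0.12, adjusted p = 0.00234 in limma) in glucose. Over all treated against all PBS libraries it was higher by 1.26 (SE 0.08, adjusted p = 0.000743 in limma). In these comparisons 0.101% and 0.327% of tested genes passed. Over PBS H and I the glucose value was smaller, 1.08 (adjusted p = 0.0354 in limma). In glucose with lipid its log2 fold change was 0.95 (SE 0.12, adjusted p = 0.0549 in limma), which did not pass. The difference of the 2 effects was -0.63 (adjusted p = 0.301 in limma) and did not pass either. Over the 27 genes of the list the median in glucose was -0.15, and -0.07 without glucose A, with 19 below 0, 6 lower and 3 higher at an unadjusted p under 0.05, against 8.44% and 6.41% of tested genes.

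Genes of G2 and mitosis had another order across the PBS libraries. Of the 20 genes in this list 17 were higher in PBS H and I than in PBS J and K, with a median log2 fold change of 0.32, where the 44 members had -0.24; 0 of 20 passed an adjusted p of 0.05 in limma and 3 were higher at an unadjusted p under 0.05, against 7.53% of tested genes. Leaving out PBS I gave 0.16 and leaving out PBS J gave 0.17 for the list. In glucose with lipid, over its PBS pair, all 20 were below 0, with a median of -0.30. Of these 0 passed an adjusted p of 0.05 in limma and 5 were lower at an unadjusted p under 0.05, against 5.93% of tested genes. Without glucose with lipid I the median was -0.13, and without H it was -0.49. Over the genes' own means the list's median was 0.15 and 0.42 in PBS H and I, and -0.21 and 0.12 in PBS J and K. In glucose with lipid H and I it was 0.11 and -0.20, below PBS H and I but within the range of PBS J and K. In glucose, over PBS J and K, 14 of 20 were below 0, with a median of -0.12, which was 0.01 without glucose A, -0.29 without glucose B, -0.27 without PBS J and -0.02 without PBS K. Aurkb, a mitotic kinase, was at 61.2 and 65.3 FPKM in glucose, 85.3 and 74.7 in glucose with lipid, 84.3 and 89.4 in PBS H and I, and 87.4 and 91.8 in PBS J and K. Its log2 fold change in glucose was -0.50 (SE 0.10, adjusted p = 0.176 in limma).

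Of the 44 members 36 matched a gene of the RefSeq promoter table, with 42 windows between them. At least 1 of the 4 E2F-type words was present in 13 of these 36 genes (36.1%), against 4.87% of 8509 tested genes and 2.61% of all 27025 genes of the table. Counted by window, the shares were 31.0% of 42 and 2.26% of 32851. By role, a word was present in 4 of 5 MCM genes, 3 of 4 licensing genes (Orc1, Cdc6 and Cdt1) and 3 of 6 polymerase genes (Pola1, Pold1 and Pole2), and in 0 of 5 nucleotide synthesis genes. Rfc3, Lig1 and Uhrf1 held the other matches. The letters CCAAT, searched on both strands, were present in 58.3% of the 36 genes and 43.3% of tested genes, and in 88.2% of 17 genes of G2 and mitosis, of which 5.88% held an E2F-type word. Fen1 and E2f1 had no E2F-type word in their windows, which says only that these letters are not there.

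**Figure D5:**
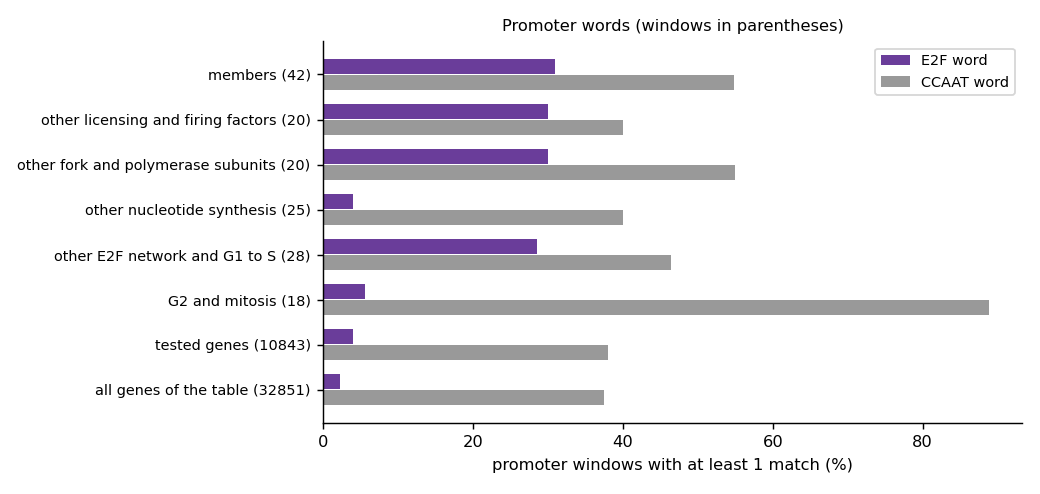
Share of promoter windows of 300 bases with at least 1 E2F-type word (purple) or CCAAT (grey), for the members, 5 other lists, the tested genes and the whole RefSeq table, with the number of windows in parentheses. E2F-type words are in 31.0% of the members' windows and 2.26% of all windows.

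Members were also split by these words. In glucose the 13 genes with a word had a median log2 fold change of -0.27, from -0.41 to -0.02, and the 23 without had -0.33, from -0.58 to 0.20. Between the PBS pairs the medians were -0.24 and -0.33, and in glucose with lipid 0.00 and 0.02. The split is a description of these windows and was given no test.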

How the data were processed

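Each library started from about 10000 sorted cells, with cDNA by the SMART-Seq HT kit and tagging by Nextera XT, per the labels' protocols. The submitters' processing notes list Cuffnorm 2.2.1, SAMtools 1.0, Bowtie2 2.2.3 and TopHat2 2.0.13 and the mouse build mm10. The authors deposited FPKM values for gene symbols, 1 per library; that they are FPKM was inferred from their range and from the tool, and fragment counts were not used here, so absolute depth is unknown and no counting interval is given. Genes that reached 1 FPKM in 2 or more of the 8 libraries were tested on log2(FPKM + 1), where a pseudocount of 1 understates the change of low genes. One limma 3.58.1 fit (R 4.3.3, mean-variance trend, 4 group means, 4 residual degrees of freedom) gave all contrasts, 2-sided, with Benjamini-Hochberg adjustment over 11931 genes. The procedure was tested on simulated data. Tables and figures used Python 3.11.15, pandas 2.3.3, numpy 2.4.6 and matplotlib 3.10.9. Positions are from GENCODE vM21 and promoters from RefSeq. The members and lists were chosen with earlier results of these data known. Genes named with full statistics were, per role, the one with the highest mean and the one with the smallest unadjusted p in either treatment comparison, and, per other list, the genes called or the one with the smallest unadjusted p; Pola1 was added after its values were seen, and others are given by values. Alternatives covered pseudocounts of 0.1 and 5, the filter, scaling, the trend, each library left out, a replicate block, and other sets of controls.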

Additional observations from a re-analysis of the deposited data

Results flagged for a closer look

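Among the 44 genes, 1 had a library far from the others within the 4 PBS libraries. Cdt1 was at 72.9 FPKM in PBS J, against 55.5 FPKM in the nearest and 53.3 FPKM in the farthest of the other PBS libraries, so that the gap to the nearest took up 0.890 of the whole range. Chance alone marks about 1 in 20 such groups.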

How the results depend on the processing

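No member passed an adjusted p of 0.05 in limma in any of the 5 comparisons under any setting run. The members' median log2 fold change in glucose was -0.17 by quantile normalization, 0.014 with the controls crossed and -0.12 with all 4 PBS libraries, against -0.28, and ranged from -0.39 to -0.17 over libraries left out. In glucose with lipid it was -0.28 with controls crossed and -0.13 with all 4 PBS libraries, against 0.01, and ranged from -0.06 to 0.04 over libraries left out. Quantile normalization gave 0.11 for the difference of effects, against 0.26, and -0.14 between the PBS pairs, against -0.24; libraries left out gave 0.19 to 0.33 and -0.36 to -0.18. Other settings kept these medians within the spread between replicates, 0.073.

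Counts of all genes past the threshold moved more. In glucose the count was 12, 19 with a pseudocount of 0.1, and 8 to 32 over libraries left out. In glucose with lipid it was 9, 3 without the filter, 28 with controls crossed, 29 with all 4 PBS libraries, 4 in a fit of only the 4 libraries compared, and 3 to 271 over libraries left out, with 271 when glucose with lipid I was absent and library H, with its neutrophil markers, stood alone. Over all treated against all PBS libraries it was 39, 17 without the filter, 17 without the trend, and 14 to 239 over libraries left out, with 239 without the same library. For the difference of effects it was 2, and 2 to 141 over libraries left out, again with 141 without it. Between the PBS pairs it was 6, 2 without the filter, and 3 to 15 over libraries left out. Where a group was left with 1 library, that library was assumed to vary like the others.

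Deviations of the libraries that share letters H and I had a correlation of 0.07 over genes. This value cannot show if the letters pair the libraries, because the neutrophil markers of glucose with lipid H enter its deviations. With the replicate block the members' median was -0.28 in glucose, 0.01 in glucose with lipid and -0.25 between the PBS pairs. In that fit 16, 0 and 16 members were lower at an unadjusted p under 0.05. The adjusted p of Cdkn1a in glucose with lipid, 0.0549, was between 0.00297 and 0.415 in limma over the settings, and under 0.05 with a pseudocount of 5, the stricter filter, quantile normalization, other controls, or without glucose with lipid I, PBS J or PBS K. FPKM without counts limits what can be said of precision.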
